A study of Mus musculus with 6 samples.

Results

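Classical cadherins and the catenins that bind them were examined as 9 genes: Cdh1, Cdh2, Cdh3, Cdh5, Cdh11, Ctnna1, Ctnna2, Ctnnd1 and Ctnnd2. Their members were every probe set whose only annotated gene was 1 of these 9, which gave 19 of the 45101 probe sets on the array, and no probe set annotated to several genes named a member. The cells were J1, a mouse embryonic stem cell line, grown on gelatin in medium with 15% fetal bovine serum and 1000 U/ml leukemia inhibitory factor. They carried a pLKO.1 lentivirus with 1 of 2 short hairpin RNAs against Jmjd1c, shJmjd1c#4 (sh4 here) or shJmjd1c#3 (sh3), or with the non-targeting hairpin shNT, whose genotype is given as wild type. All 3 groups went through the same infection, 2 days of selection in 1.5 ug/ml puromycin and 4 days of growth after replating, so that every group had integrated virus and drug-resistant survivors, and there were no uninfected cells among the groups. Each group had 2 Affymetrix Mouse Genome 430 2.0 arrays, called biological replicates in the labels, and the number of arrays limits the precision throughout.

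Classical cadherins are calcium-dependent transmembrane proteins that hold neighbouring cells together by binding the same cadherin on the next cell. Their tails bind beta-catenin or plakoglobin, which recruit alpha-catenin and through it the actin cytoskeleton, while p120-catenin (Ctnnd1) binds nearer the membrane and keeps the cadherin at the surface. Embryonic stem cells adhere to each other mainly through E-cadherin (Cdh1), and N-cadherin (Cdh2) is typical of neural and mesenchymal cells. A change from E-cadherin to N-cadherin is a known accompaniment of epithelial-mesenchymal transition and of gastrulation.

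Values are MAS5 signals in arbitrary units, which do not allow levels of different probe sets to be compared. Differences are in log2(signal + 16), knockdown minus control, with standard errors (SE) from limma. The bacterial TrpnX control probe sets, for which the cells have no transcript, read at most 27.8, and probe sets whose mean over the 6 arrays lay below a signal of 40.1 were not tested. Of the 19 probe sets 13 were tested and 6 were too dim. The stem cell identity of the samples was checked with 10 markers, all of which passed the signal filter; Pou5f1, a core pluripotency factor, read 10932 and 9797 in sh4, 9964 and 9281 in sh3, and 9069 and 11587 in shNT. Of the 10, 8 were lower in the knockdown mean (median -0.19). By limma 0 passed, and 2 had an unadjusted p under 0.05 (10.2% of all probe sets tested). Esrrb (-0.77), Sox2 (-0.33) and Nanog (-0.40) fell with the replicate number as a block, where 2.61% of all passed in either direction. The summed signal of the 10 was 101922 to 106974 in sh4, 94869 to 100847 in sh3, and 108722 to 129268 in shNT. Array medians were 81.0 and 75.5 in sh4, 76.0 and 71.7 in sh3, and 73.6 and 69.2 in shNT. Replicate 1 was thus the higher in each group, and within each replicate number the order was sh4, sh3, shNT. The 3' and middle probe sets for 18S ribosomal RNA read lower in all 4 knockdown arrays than in both controls. The 3' probe set read 3712 to 6177 in knockdown arrays and 6875 to 8140 in controls. At the 5' probe set sh3 replicate 1 (9437) lay above shNT replicate 2 (8517). The part of 18S ribosomal RNA in the differences below was not tested.

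The hairpins' target was measured by 3 probe sets that disagreed. Probe set 1426900_at of Jmjd1c, a JmjC-domain protein of the histone demethylase family, read 3274 and 4215 in sh4, 4541 and 4984 in sh3, and 6060 and 5516 in shNT, with all 4 knockdown arrays below both controls (log2 -0.46, SE 0.13, adjusted p = 0.256 by limma). With the replicate number added as a block the difference passed (adjusted p = 0.0438 by limma). At the other 2 probe sets all 4 knockdown arrays lay above both controls, by a log2 of 0.90 at 1448049_at (adjusted p = 0.0789 by limma, and 0.00897 with the block) and 0.73 at 1439998_at (adjusted p = 0.354 by limma). Where the probe sets lie relative to the hairpin targets was not analysed here, and the groups are called knockdown by their labels.

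Among the cadherins and catenins, N-cadherin read higher in all 4 knockdown arrays than in both controls at both of its probe sets, but neither its difference nor that of any other member passed the test without a replicate block. None of the 13 tested probe sets passed an adjusted p of 0.05 in the mean of both hairpins against shNT by limma, where 0.152% of all 27022 probe sets tested did, and 3 of the 13 had an unadjusted p under 0.05, where 10.2% of all did. Those 3 were both Cdh2 probe sets and the Cdh1 probe set. Same-numbered arrays deviated together from their group means in every pair of groups, so the fit was also made with the replicate number as a block. With the block 1 of the 13 passed, the brighter Cdh2 probe set, beside 2.61% of all probe sets. In 2 of the 13, again those of Cdh2, all 4 knockdown arrays lay above both control arrays, as they did in 10.4% of all probe sets tested, and in 0 of the 13 did all 4 lie below both, against 8.77% of all. The differences of the 13 had a median of 0.20, with 10 positive and 3 negative, and all 27022 had a median of 0.01 with 52% positive.

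**Figure D1:**
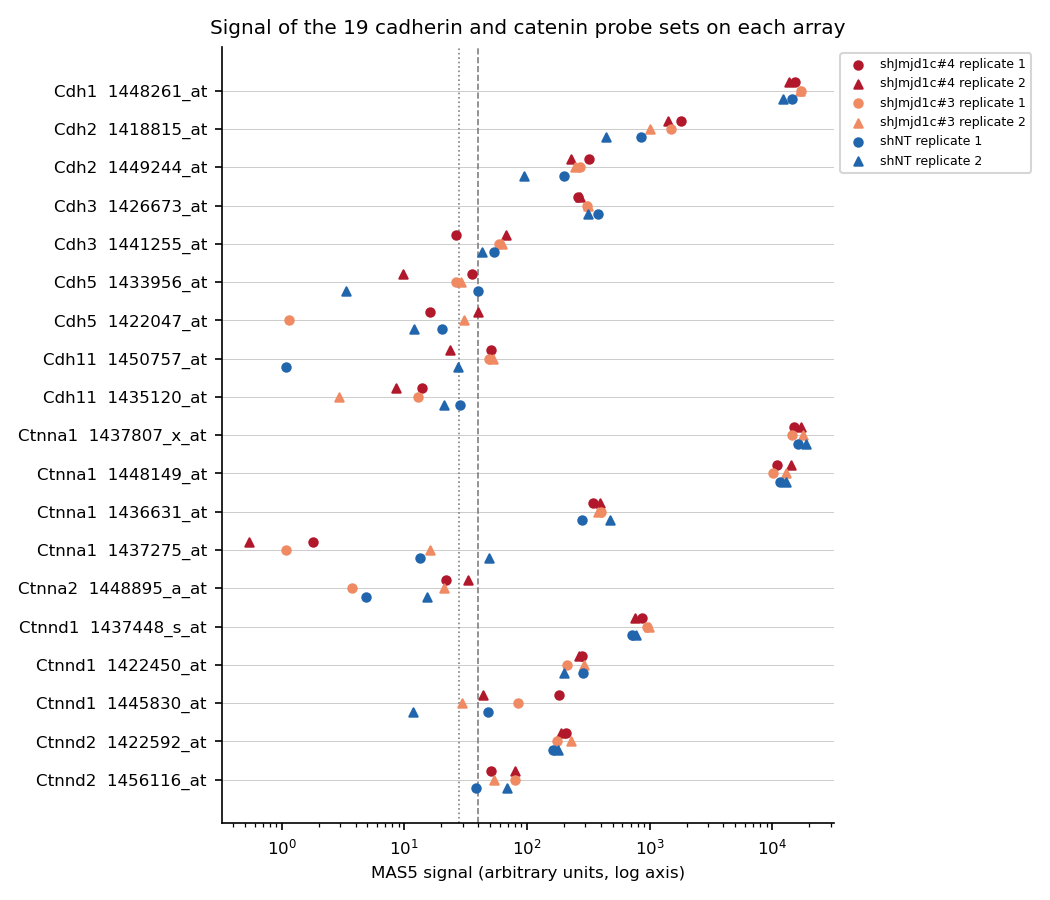
Signal of each of the 19 probe sets (rows) on the 6 arrays, on a log axis in arbitrary units; colour gives the group and the marker shape the replicate. The dotted line is the highest TrpnX control signal (27.8) and the dashed line the signal of the filter (40.1); both Cdh2 rows show the 4 knockdown arrays to the right of both shNT arrays, and the Cdh5, Cdh11 and Ctnna2 rows lie about the lines.

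The E-cadherin gene Cdh1 was measured by a single probe set, 1448261_at. It read 15270.5 and 13768 in sh4, 17257 and 16977 in sh3, and 14441 and 12329 in shNT. Both sh3 arrays and sh4 replicate 1 lay above both controls, and sh4 replicate 2 lay between them. Knockdown minus control came to 0.24 (SE 0.11), which did not pass (adjusted p = 0.489 by limma; adjusted p = 0.102 with the block). It was 0.36 (SE 0.12, adjusted p = 0.503 by limma) in sh3 and 0.12 (SE 0.12, adjusted p = 0.807 by limma) in sh4, with a 95% interval of -0.16 to 0.40 in sh4. The interval in the mean of both hairpins reached from 0.00 to 0.48. The mean signal was thus higher in sh4 (14519) and in sh3 (17117) than in shNT (13385), by differences that did not pass.

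N-cadherin, the product of Cdh2, was measured by 2 probe sets. Probe set 1418815_at read 1804 and 1412 in sh4, 1499 and 1015 in sh3, and 857 and 440.1 in shNT. All 4 knockdown arrays lay above both controls, and in each group replicate 1 lay above replicate 2, a pattern seen in 23.4% of all probe sets tested. Knockdown arrays averaged 1433 ± 325 (SD, n = 4) and controls 649 ± 295 (SD, n = 2), a ratio of 2.21. The log2 difference was 1.17 (SE 0.26), with a 95% interval of 0.58 to 1.76. It did not pass over all probe sets (adjusted p = 0.164 by limma), and it passed with the block (SE 0.13, adjusted p = 0.00223 by limma). The size rested partly on the controls: it was 1.64 without shNT replicate 1 and 0.70 without shNT replicate 2, adjusted p = 0.0656 and 0.417 by limma. With the block these became 1.41 and 0.93.

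The dimmer Cdh2 probe set, 1449244_at, gave the same order of groups. It read 322 and 228 in sh4, 273 and 246 in sh3, and 199 and 94.2 in shNT. Again all 4 knockdown arrays lay above both controls, here by as little as 228 in sh4 replicate 2 against 199 in shNT replicate 1. It gave 0.87 (SE 0.29, adjusted p = 0.345 by limma) and did not pass with the block either (SE 0.21, adjusted p = 0.0575 by limma). It was 1.35 without shNT replicate 1 and 0.39 without shNT replicate 2.

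**Figure D2:**
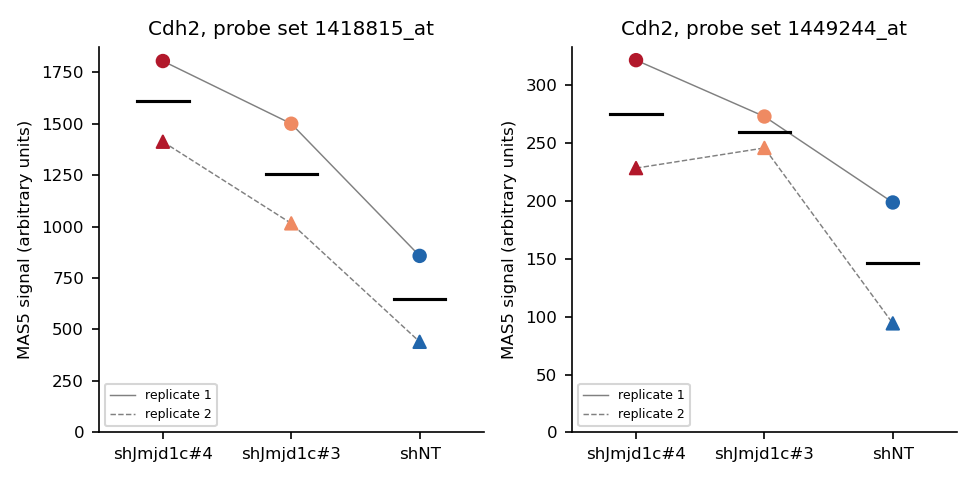
MAS5 signal (arbitrary units, from 0) of the 2 Cdh2 probe sets in sh4, sh3 and shNT; points are single arrays, thin lines join arrays of the same replicate number and black bars are group means of 2 arrays. At 1418815_at the group means are 1608, 1257 and 649, and at both probe sets the knockdown arrays lie above both controls while the controls differ from each other by more than the higher control differs from the lowest knockdown array.

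By hairpin, Cdh2 was higher with each. At 1418815_at the difference from shNT was 1.35 (SE 0.30, adjusted p = 0.171 by limma) in sh4 and 0.99 (SE 0.30, adjusted p = 0.462 by limma) in sh3, and both passed with the block (adjusted p = 0.00337 and 0.0151 by limma). At 1449244_at it was 0.90 in sh4 and 0.84 in sh3, and neither passed with or without the block. The groups stood in the order sh4, sh3, shNT, but sh4 and sh3 were not shown to differ. Their difference, sh4 minus sh3, was 0.37 at 1418815_at (95% interval -0.32 to 1.05) and 0.06 at 1449244_at (95% interval -0.70 to 0.82).

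P-cadherin, encoded by Cdh3 and named for the placenta, had 2 tested probe sets. Probe set 1426673_at read 259 and 272 in sh4, 309 and 313.1 in sh3, and 381 and 312.9 in shNT. The 2 sh4 arrays and sh3 replicate 1 lay below both controls, and sh3 replicate 2 was level with shNT replicate 2. This came to -0.25 (SE 0.17), not past the threshold (adjusted p = 0.688 by limma; adjusted p = 0.473 with the block), -0.36 in sh4 and -0.15 in sh3. The dim probe set 1441255_at read 26.3 and 68.0 in sh4, 59.3 and 63.0 in sh3, and 53.4 and 43.2 in shNT, a difference of 0.08 (SE 0.36). Its arrays overlapped, and its sign turned to -0.17 without sh4 replicate 2 and to -0.03 without shNT replicate 2.

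The cadherins of other tissues were near the background of the array. VE-cadherin (Cdh5), the cadherin of endothelial junctions, read 35.9 and 9.69 in sh4, 26.3 and 29.0 in sh3, and 39.7 and 3.37 in shNT at 1433956_at. At 1422047_at it read 16.04 and 39.8 in sh4, 1.15 and 30.4 in sh3, and 20.4 and 11.99 in shNT. Neither probe set separated the groups. Cadherin-11 (Cdh11), found in mesenchymal cells and osteoblasts, read 51.0 and 23.6 in sh4, 48.6 and 52.7 in sh3, and 1.09 and 27.4 in shNT at 1450757_at. Its other probe set, 1435120_at, read 13.8 and 8.49 in sh4, 12.9 and 2.94 in sh3, and 28.2 and 21.1 in shNT. The 2 Cdh11 probe sets thus ran in opposite directions at signals about the level of the bacterial control, and no change of Cdh11 can be read from them.

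Alpha-catenin, the link to actin, is encoded by Ctnna1 in most tissues. Its brightest probe set, 1437807_x_at, read 14945 and 17171 in sh4, 14470.0 and 17920.4 in sh3, and 16241 and 18963 in shNT. Probe set 1448149_at read 11039.5 and 14276 in sh4, 10123 and 12979 in sh3, and 11611.5 and 12976 in shNT. At both, replicate 2 was the higher array in every group, and the groups overlapped. The differences were -0.13 (SE 0.13, 95% interval -0.41 to 0.16) and -0.03 (SE 0.14, 95% interval -0.36 to 0.29), adjusted p = 0.796 and 0.962 by limma. The suffix of 1437807_x_at marks a probe set that may cross-hybridize. The dimmer 1436631_at read 347 and 397 in sh4, 400.0 and 378 in sh3, and 279.9 and 476 in shNT, so that every knockdown array lay between the 2 controls, and its difference was 0.05 (SE 0.22, adjusted p = 0.960 by limma). The last, 1437275_at, was below the filter, from 0.545 to 16.2 in the knockdown arrays and at 13.4 and 48.8 in shNT. Ctnna2, the alpha-catenin of neurons, read 22.0 and 33.1 in sh4, 3.75 and 21.1 in sh3, and 4.84 and 15.2 in shNT, below the filter.

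Ctnnd1 encodes p120-catenin, which binds the juxtamembrane part of cadherin tails. Its brightest probe set, 1437448_s_at, read 874 and 757 in sh4, 956 and 998 in sh3, and 721 and 768 in shNT. Both sh3 arrays and sh4 replicate 1 lay above both controls. The mean of both hairpins exceeded shNT by 0.26 (SE 0.13), sh4 by 0.13 and sh3 by 0.38, and none passed (adjusted p = 0.556, 0.840 and 0.580 by limma). At 1422450_at the signal was 279 and 268 in sh4, 212 and 289 in sh3, and 286 and 201 in shNT, overlapping throughout, with a difference of 0.11 (SE 0.22). Probe set 1445830_at read 184 and 43.5 in sh4, 84.7 and 29.4 in sh3, and 47.7 and 11.7 in shNT. Replicate 1 was the higher in all 3 groups, and within each replicate number the arrays stood in the order sh4, sh3, shNT, while the groups overlapped. The difference of 1.03 (SE 0.57, 95% interval -0.27 to 2.33, adjusted p = 0.591 by limma; adjusted p = 0.131 with the block) did not pass. The 3 Ctnnd1 probe sets had the same sign and differed in size.

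Ctnnd2 encodes delta-catenin, a relative of p120-catenin best known from neurons. Probe set 1422592_at read 207 and 190.2 in sh4, 175 and 228 in sh3, and 162 and 181 in shNT, with 3 of the 4 knockdown arrays above both controls. This gave 0.20 (SE 0.21), not past the threshold by limma (adjusted p = 0.811). The dimmer 1456116_at read 50.7 and 79.6 in sh4, 79.6 and 54.3 in sh3, and 38.7 and 69.4 in shNT, with a difference of 0.24 (SE 0.34, adjusted p = 0.865 by limma). At 1422592_at sh3 replicate 1 lay between the controls, and at 1456116_at the groups overlapped.

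**Figure D3:**
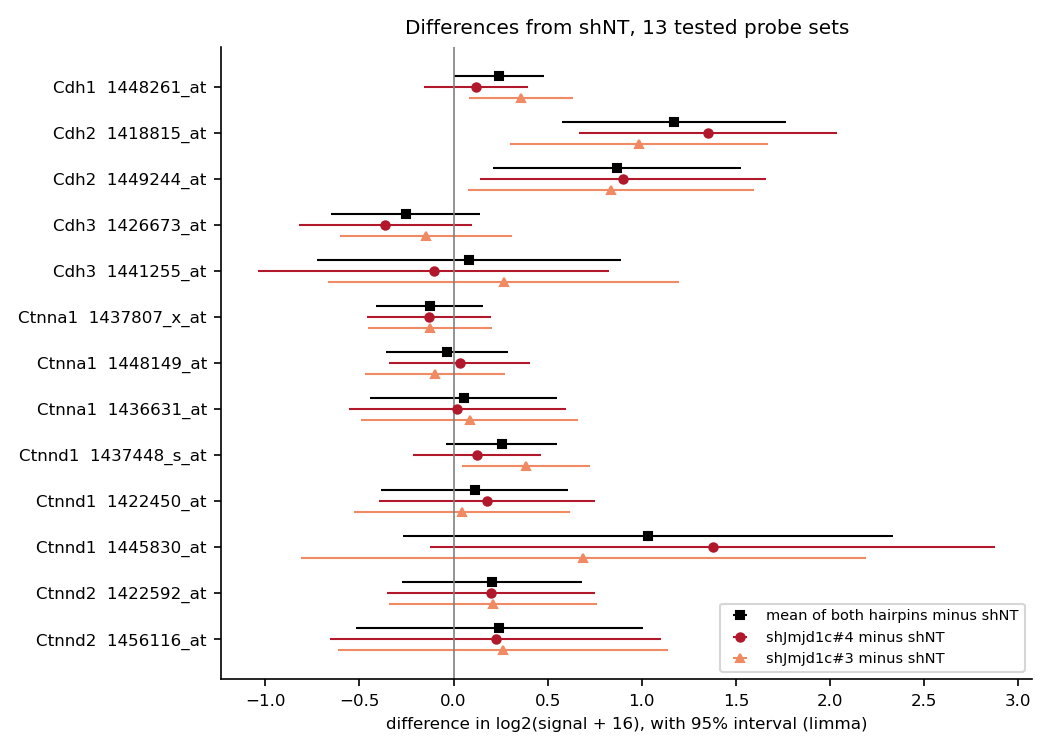
Difference from shNT in log2(signal + 16) for the 13 tested probe sets (rows), as the mean of both hairpins, sh4 and sh3, with 95% intervals from limma that are not adjusted for the number of probe sets. The 2 Cdh2 rows lie at 1.17 and 0.87 in the mean of both hairpins, and the intervals of the Ctnna1, Ctnnd2 and Cdh3 rows include 0.

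RefSeq start-site windows, from 250 bases before to 50 after an annotated start, were at hand for 3 of the 9 genes. Those of Ctnnd1 and Ctnna2 are shown because the p120-catenin gene was measured above background here, from 2 annotated starts, while the neuronal alpha-catenin gene was not. Each is written 5′ to 3′ on the gene's strand, in build GRCm38.p6. Capitals mark matches, on either strand, to the E-box CACCTG (reverse complement CAGGTG), which zinc-finger repressors of E-cadherin recognise, and to the CCAAT box (reverse complement ATTGG); these motifs do not overlap in the windows shown.
Ctnnd1, upstream start, chr2:84658928-84659227, minus strand: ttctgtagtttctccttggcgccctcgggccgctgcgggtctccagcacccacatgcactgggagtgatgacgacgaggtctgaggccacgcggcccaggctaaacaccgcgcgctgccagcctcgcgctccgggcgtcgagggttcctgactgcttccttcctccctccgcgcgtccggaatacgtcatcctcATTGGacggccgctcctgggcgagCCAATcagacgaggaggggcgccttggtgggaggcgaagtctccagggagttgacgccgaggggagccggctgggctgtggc
Ctnnd1, downstream start, chr2:84650691-84650990, minus strand: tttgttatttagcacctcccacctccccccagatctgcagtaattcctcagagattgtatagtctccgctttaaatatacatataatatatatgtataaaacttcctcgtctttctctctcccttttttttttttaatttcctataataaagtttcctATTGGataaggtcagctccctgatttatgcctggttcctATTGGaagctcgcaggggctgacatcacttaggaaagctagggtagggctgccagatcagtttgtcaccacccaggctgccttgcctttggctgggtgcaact
Ctnna2, chr6:77979618-77979917, minus strand: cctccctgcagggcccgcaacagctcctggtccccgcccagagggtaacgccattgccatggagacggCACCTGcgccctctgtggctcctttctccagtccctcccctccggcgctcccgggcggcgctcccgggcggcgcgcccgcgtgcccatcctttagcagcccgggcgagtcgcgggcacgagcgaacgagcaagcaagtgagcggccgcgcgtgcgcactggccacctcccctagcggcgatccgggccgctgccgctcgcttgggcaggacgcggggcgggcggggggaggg
The upstream Ctnnd1 window held 2 CCAAT matches, 30 CG dinucleotides and 67.7% G and C, and the downstream window held 2 CCAAT matches, 3 CG dinucleotides and 42.7% G and C. The Ctnna2 window held 1 E-box match, 38 CG dinucleotides and 75.3% G and C. The Ctnnd2 window held neither motif. Of 32851 windows of this length, 20.2% held the E-box and 37.4% the CCAAT box. A match in these letters is not evidence of binding, and the array does not tell transcripts of the 2 Ctnnd1 starts apart.

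Between the hairpins, 0 of the 13 probe sets passed by limma in sh4 minus sh3, as did 0% of all probe sets tested, and 0 of the 13 had an unadjusted p under 0.05, against 4.97% of all. The adjusted p of the 13 lay between 0.956 and 0.996. Cdh1 was at -0.24 (95% interval -0.52 to 0.04) and the brightest Ctnnd1 probe set at -0.26 (95% interval -0.60 to 0.08), so differences of that size between the hairpins were not resolved. Against shNT, 0 of the 13 passed by limma in sh4, where 0.137% of all did, and 0 in sh3, where 0% did; with an unadjusted p under 0.05 there were 2 of the 13 in sh4 (10.2% of all) and 4 in sh3 (7.73% of all). With the block 1 of the 13 passed in sh4 (2.34% of all) and 1 in sh3 (1.29% of all), each time Cdh2 at 1418815_at, and 0 in sh4 minus sh3 (0.0925% of all). The unadjusted 4 in sh3 were Cdh1, both Cdh2 probe sets and the brightest of Ctnnd1. The contrasts with shNT share the same 2 control arrays.

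Other classical cadherins were read from a list of 13 genes, of which 11 had a probe set and 6 passed the filter by their brightest probe set. None rose or fell by limma, and 2 of the 6 had an unadjusted p under 0.05 (10.2% of all probe sets). R-cadherin (Cdh4), a close relative of N-cadherin, read 139 and 135 in sh4, 109 and 98.9 in sh3, and 48.4 and 63.2 in shNT, with all 4 knockdown arrays above both controls (log2 0.92, adjusted p = 0.256 by limma; adjusted p = 0.0876 with the block). Cdh10, a type II cadherin of the nervous system, read 243 and 247 in sh4, 203 and 185 in sh3, and 178 and 105 in shNT at its brightest probe set (log2 0.61, adjusted p = 0.432 by limma). The dimmer tested probe set of Cdh10 read 104 and 103 in sh4, 60.4 and 99.4 in sh3, and 32.0 and 16.6 in shNT. It was at 1.42 (adjusted p = 0.166 by limma, and 0.0531 with the block). Cdh6, known from kidney and neural crest, was at 0.60 (adjusted p = 0.572 by limma). The other tested probe sets of Cdh6 and Cdh4 were at 1.07 and 0.83 (adjusted p = 0.403 and 0.410 by limma). Cdh4, Cdh10 and Cdh6 had all 4 knockdown arrays above both controls at every tested probe set (10.4% of all probe sets). At the dimmer tested Cdh10 probe set and both of Cdh6, both shNT arrays lay below the filter signal of 40.1. The other 3 tested genes, Cdh9, Cdh15 and Cdh22, were at -0.20, -0.33 and -0.61. Over all 11 genes with a probe set, 5 were higher in the knockdown mean and the median was -0.09.

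The remaining catenins did not pass the test without the block. Beta-catenin (Ctnnb1), which binds the cadherin tail and also carries Wnt signals, read 16761 and 18901 in sh4, 18882 and 21843 in sh3, and 20550.1 and 23357 in shNT at its brightest probe set (log2 -0.20, adjusted p = 0.585 by limma; adjusted p = 0.111 with the block). Its probe set 1430533_a_at was at -0.31. Probe set 1450008_a_at read 1642 and 1839 in sh4, 2497 and 2503 in sh3, and 2524 and 2448 in shNT, and was at -0.25 in the mean of both hairpins. Both sh4 arrays lay below all other arrays there, and it fell with the block in sh4 (log2 -0.51, adjusted p = 0.0363 by limma). In sh3 it was at 0.01, and sh4 minus sh3 was -0.52 (adjusted p = 0.755 by limma; adjusted p = 0.122 with the block). Plakoglobin (Jup), which can take beta-catenin's place, read 768 and 651 in sh4, 719 and 730 in sh3, and 593 and 632 in shNT, all 4 knockdown arrays above both controls (log2 0.22, adjusted p = 0.647 by limma). Arvcf, of the p120 family, was at -0.37. Of 8 listed genes 7 were tested, with a median of -0.01.

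Partners and regulators of the junction were read from 5 further lists, with 48 genes tested by their brightest probe set, and 0 passed by limma without the block, against 9 with an unadjusted p under 0.05 (10.2% of all probe sets). Lima1, an actin-binding protein also called EPLIN that links alpha-catenin to actin, had the smallest p of its list. It read 1692 and 2120 in sh4, 2145 and 2213 in sh3, and 3291 and 2793 in shNT at 1435727_s_at, all 4 knockdown arrays below both controls. Its difference of -0.57 (SE 0.13) did not pass over all probe sets (adjusted p = 0.166 by limma), and it fell with the block (adjusted p = 0.0300 by limma). Lima1 also fell with the block at 1450629_at (log2 -0.55) and 1422499_at (log2 -0.61), while 1425654_a_at was at -0.23. The linker Vcl, vinculin, was at 0.30 and the junction scaffold Tjp1 also at 0.30, and neither passed. Ptpn14, a tyrosine phosphatase found at adherens junctions, read 1199 and 993 in sh4, 1260.3 and 1267 in sh3, and 679 and 833 in shNT (log2 0.63, adjusted p = 0.163 by limma), and rose with the block (adjusted p = 0.0334 by limma). Its other probe sets, at 0.63 and 0.17, did not pass with the block (adjusted p = 0.192 and 0.626 by limma). Cbll1, a ubiquitin ligase also called Hakai that acts on E-cadherin, was at -0.26, and Adam10, a protease that sheds cadherin ectodomains, at 0.15. In the mean of both hairpins, these 4 probe sets, 3 of Lima1 and 1 of Ptpn14, passed with the block, where 2.61% of all probe sets tested did. Outside the 9 genes, no other probe set of the cadherin, catenin, partner and regulator lists did.

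Genes that repress Cdh1 gave mixed values. Of 9 listed, 8 had a probe set, 6 were tested and 0 passed by limma. An unadjusted p under 0.05 was found in 2 of the 6 (10.2% of all probe sets), in opposite directions. Twist1, a helix-loop-helix factor of mesenchyme, read 85.4 and 80.3 in sh4, 107 and 126 in sh3, and 48.9 and 52.1 in shNT (log2 0.78, adjusted p = 0.343 by limma). Zeb1, a zinc-finger repressor, read 497 and 435 in sh4, 264 and 246 in sh3, and 441 and 566 in shNT, so that both sh3 arrays and sh4 replicate 2 lay below both controls (log2 -0.51, adjusted p = 0.352 by limma). By hairpin Zeb1 was at -0.10 in sh4 and -0.93 in sh3, where it fell with the block (adjusted p = 0.0439 by limma). Tcf4 was at 0.21. Of the epithelial activators and markers, the adhesion molecule Epcam was at -0.17, Grhl3 at -0.19 and Ovol2 at -0.25 in the mean of both hairpins. There 0 of 6 tested had an unadjusted p under 0.05, against 10.2% of all probe sets. By hairpin Epcam was at -0.40 in sh4, where it fell with the block (adjusted p = 0.0384 by limma), and at 0.05 in sh3. The difference between the hairpins was -0.45 (adjusted p = 0.761 by limma; adjusted p = 0.106 with the block). Among effectors of p120-catenin the GTPase Rac1 was at 0.41 (adjusted p = 0.255 by limma; adjusted p = 0.0518 with the block), Arhgap35 at 0.35 and Vav2 at 0.29.

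**Figure D4:**
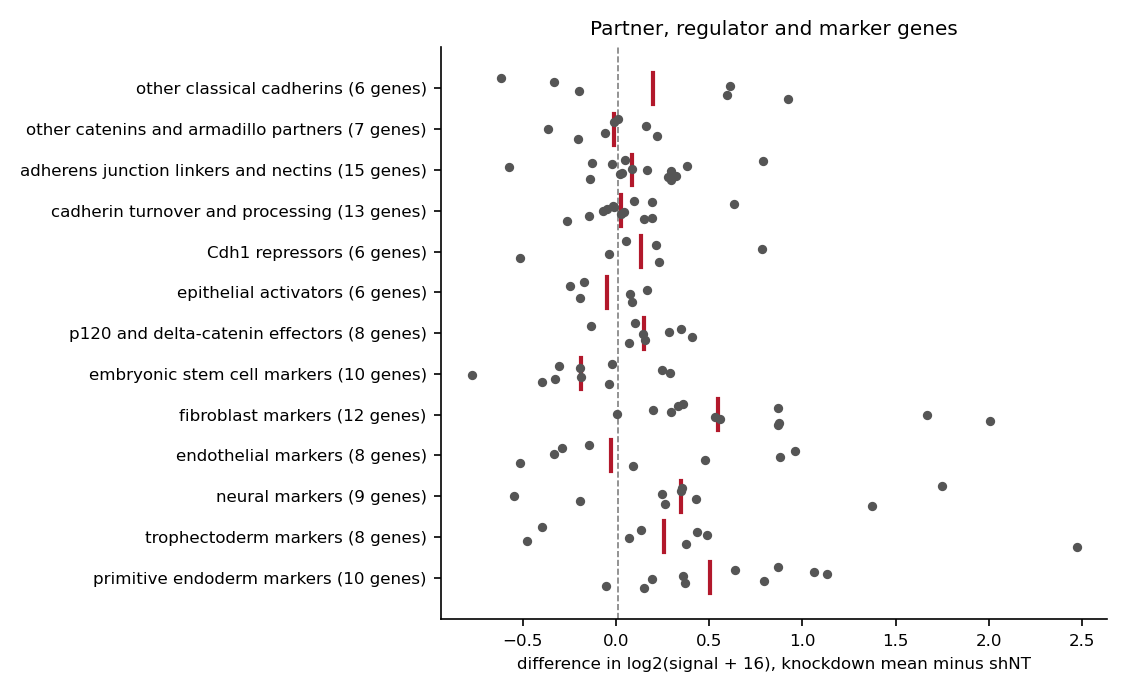
Difference between the knockdown mean and shNT in log2(signal + 16) for genes of the lists (rows), 1 point per tested gene at its brightest probe set; red bars are list medians and the dashed line is the median of all tested probe sets (0.01). The lists were chosen with earlier results known; the points of the other classical cadherins lie between -0.61 and 0.92.

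Markers of other cell types, among them types that carry N-cadherin, were read in the same groups. Of 18 fibroblast markers, 15 were higher in the knockdown mean (median 0.55 over all 18, against 0.02 over all 18193 genes, 52.8% of which were higher). Of the 12 that passed the filter, 0 passed the test by limma, 5 had an unadjusted p under 0.05 (10.2% of all probe sets) and 2, Col3a1 and Dcn, rose with the block (2.61% of all probe sets passed in either direction). Their summed signal was 4401 to 4453 in sh4, 3493 to 3624 in sh3, and 2817 to 2974 in shNT. The defining markers were dim: Dcn, decorin, read 106 and 113 in sh4, 41.4 and 47.1 in sh3, and 10.9 and 11.7 in shNT, Col3a1 read 171 and 254 in sh4, 109 and 189.6 in sh3, and 25.6 and 37.6 in shNT, and Postn, Lum, Fap and Prrx1 were below the filter, as was Cdh11. At Dcn and Col3a1 both shNT arrays lay below the filter signal of 40.1, so these genes passed the filter only through the knockdown arrays. The brighter collagen gene Col5a1 was at 0.56 (adjusted p = 0.318 by limma). Of 11 neural markers, 8 were higher (median 0.31), and their summed signal was 3272 to 4334 in sh4, 3249 to 3795 in sh3, and 2374 to 3564 in shNT. Of the 9 tested, 3 had an unadjusted p under 0.05 (10.2% of all probe sets). With the block 2 rose (2.61% of all probe sets passed in either direction). Nes, the neural progenitor filament nestin, rose by limma at 1449022_at (log2 1.37, adjusted p = 0.0481); it read 808 and 567 in sh4, 665 and 655 in sh3, and 291 and 211 in shNT. The other Nes probe sets, 1418289_at and 1453997_a_at, were not called in the mean of both hairpins. The call at 1449022_at was lost in 13 of 17 alternative settings, among them the omission of any 1 of the 6 arrays (log2 1.16 to 1.59). Fabp7, a fatty acid binding protein of radial glia, was at 1.75 and the neuronal tubulin Tubb3 at -0.54, and neither passed by limma (adjusted p = 0.315 and 0.447). Dcx and Olig2 were below the filter.

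Of 11 primitive endoderm markers, 10 were higher (median 0.64), with a summed signal of 11496 to 11756 in sh4, 9310 to 10427 in sh3, and 6870 to 6993 in shNT. Of the 10 tested, 6 had an unadjusted p under 0.05 (10.2% of all probe sets), all of them higher. With the block 3 rose (2.61% of all probe sets passed in either direction). Col4a1, a basement membrane collagen, rose by limma at 1452035_at in the mean of both hairpins (log2 1.13, adjusted p = 0.0425). It read 2672 and 2050 in sh4, 1046 and 1277 in sh3, and 698 and 787 in shNT. The difference was 1.64 in sh4 (adjusted p = 0.0306 by limma) and 0.63 in sh3 (adjusted p = 0.387 by limma). In sh4 minus sh3 it was 1.01 (adjusted p = 0.599 by limma). The other Col4a1 probe set, 1426348_at, was not called in the mean of both hairpins. The call at 1452035_at was lost in 11 of 17 alternative settings, among them the omission of each array except sh4 replicate 2 (log2 1.04 to 1.23). Sparc was at 0.64 and Col4a2 at 1.06, and neither passed by limma (adjusted p = 0.0701 and 0.0892). Afp was below the filter. Trophectoderm markers were higher in 8 of 11 (median 0.38), led by Cdx2 at 2.47 (adjusted p = 0.0699 by limma), with Eomes at 0.38 and Tfap2c at -0.47. Their summed signal was 6565 to 8977 in sh4, 7834 to 13792 in sh3, and 5959 to 9660 in shNT. Of the 8 tested, 2 had an unadjusted p under 0.05 (10.2% of all probe sets), in opposite directions. Cdx2 read 104 and 120 in sh4, 90.6 and 209 in sh3, and 18.8 and 2.43 in shNT. Both controls lay below the filter signal of 40.1, so Cdx2 passed the filter only through the knockdown arrays. Its difference ran from 1.36 to 3.92 over the alternative settings in which it was tested. With the block Cdx2 rose (adjusted p = 0.0111 by limma) and Tfap2c fell (adjusted p = 0.0480 by limma). Endothelial markers were higher in 7 of 12 (median 0.08), with Tie1 and Emcn as dim as Cdh5. Esam, Sox17 and Tek were at 0.88, 0.96 and -0.51 in the mean of both hairpins. Of the 8 tested, 3 had an unadjusted p under 0.05 (10.2% of all probe sets). By hairpin Sox17 was at 1.69 in sh4, where it rose with the block (adjusted p = 0.0198 by limma). In sh3 it was at 0.23 (adjusted p = 0.916 by limma), and sh4 minus sh3 was 1.47 (adjusted p = 0.692 by limma). In bulk RNA fewer cells of a type and less RNA per cell cannot be told apart, and the part of these cell types in the Cdh2 difference was not tested.

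Cdh2 was the only member whose brightest probe set was tested and spanned at least 1 log2 unit over the 6 arrays (2.00). The genes with the profile nearest to it, by root mean square distance between log2 values centred on their own mean, were Insm1 (0.06), a zinc-finger factor of neuroendocrine cells, Soga3 (0.09) and Magef1 (0.12), among 12177 genes compared over 6 arrays. Insm1 read 242 and 172 in sh4, 206 and 128 in sh3, and 110.0 and 52.1 in shNT, with replicate 1 above replicate 2 in each group, as for Cdh2. The likeness was not tested.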

How the data were processed

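Total RNA from 6 samples (6 ug each per the labels' protocols) was hybridized to 1 array each. The authors deposited array intensity as linear MAS5 signals, per the submitters' processing notes, with the software version not given. On every array the middle 96% of values averaged 500.003, so the deposited signal was already scaled, and no background correction was added. Of 45101 probe sets 64 were controls; 34945 had 1 gene symbol, 932 several and 9160 none. Signals were transformed to log2(signal + 16), and the 27022 probe sets averaging no less than the 40th percentile (signal 40.1) were tested.

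With limma 3.58.1 (R 4.3.3), 3 group means were fitted over 6 arrays (residual df 3, prior df 5.84; intensity trend). Tests were 2-sided, and every adjusted p is limma's after Benjamini-Hochberg adjustment over all probe sets tested. Compared with shNT were the mean of both hairpins, sh4 and sh3, and sh4 was also set against sh3. Samples were grouped by the transfection label. Replicate numbers come from the titles, and no label says what they share. The deviations from the group mean of arrays with the same number correlated, across probe sets, at 0.302 (sh4 and sh3), 0.207 (sh4 and shNT) and 0.280 (sh3 and shNT), and the numbers were therefore treated as pairs, which rests on these arrays alone; the block left 2 residual df. P-values measure only the spread between these samples.

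Members and lists were chosen with earlier results of these data known. Every probe set of the 9 genes is given. Of each list, those that passed for the mean of both hairpins are named, or else up to 3 with the smallest p, and the 3 genes nearest in profile to a member that spans at least 1 log2 unit. Cdh9, Cdh15, Cdh22, Pou5f1, Postn, Lum, Fap, Prrx1, Dcx, Olig2, Afp, Tie1, Emcn, Fabp7, Tubb3, Sparc and Col4a2 were chosen after their values were seen. Gene lists use the brightest probe set of a gene. The other tested probe sets of Cdh4, Cdh6 and Cdh10 were chosen after their values were seen. The fit was tested on simulated data. Alternatives were other pseudocounts, filters and normalizations, no trend, the block, 1 probe set per gene, no cross-hybridizing probe sets, 1 knockdown group, and leaving out each array.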

Additional observations from a re-analysis of the deposited data

How the results depend on the processing

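The count of cadherin and catenin probe sets past the threshold was 0 in each contrast under every alternative except the replicate block. With the block it was 1 in the knockdown mean, in sh4 and in sh3 against shNT, each time Cdh2 at 1418815_at. In the knockdown mean with the block, 4 probe sets of the other cadherin, catenin, partner and regulator lists passed, where 2.61% of all probe sets tested did. Over all probe sets, calls in the knockdown mean numbered 41, and 705 with the block, 92 with 1 probe set per gene, 82 with the knockdown arrays as 1 group, 24 with quantile normalization, 19 without the filter, 12 without probe sets that may cross-hybridize, 0 without an intensity trend, and 0 to 25 without single arrays. In sh4 they numbered 37, and 633 with the block, 9 with median centring, 7 without the filter, 8 without cross-hybridizing probe sets, 0 without a trend, and 0 to 16 without single arrays. In sh3 they numbered 0, and 348 with the block, 9 with 1 probe set per gene and 0 to 1 without single arrays, and in sh4 minus sh3 they numbered 0, and 25 with the block. The cause of these moves was not tested. Cdh2 at 1418815_at stayed positive under all alternatives, at 1.09 to 1.19 in the knockdown mean outside the omission of arrays and 0.70 to 1.64 with it. With the block and each array left out in turn, chosen after seeing the data and with 1 residual df, where the test leans on the spread of other probe sets, it was 0.93 to 1.41 and past the threshold each time, while Cdh2 at 1449244_at was 0.54 to 1.20 and past it in 3 of 6 omissions; in sh3 the call of 1418815_at was then lost without sh3 replicate 1 or 2 (1.03 and 0.94). The sign turned for small differences. Ctnna1 at 1436631_at was at -0.022 with median centring and -0.31 to 0.42 without single arrays, Ctnna1 at 1448149_at at -0.13 to 0.060, Cdh3 at 1441255_at at -0.17 to 0.33, Ctnnd1 at 1422450_at at -0.13 to 0.35 and Ctnnd2 at 1456116_at at -0.078 to 0.56. Signals near background limit what can be said of Cdh5, Cdh11 and Ctnna2.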
